A study of Mus musculus with 28 samples.

Results

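The genes described here are those of a sterol and fatty acid synthesis module, 35 listed genes that carry acetyl-CoA to cholesterol and to long-chain fatty acids, with the regulators that control them. A gene entered through its probe set with the highest mean among those annotated to that gene alone, and 34 of the 35 had one, of 18193 genes so represented on the array. Acat2, a cytosolic thiolase, had no probe set naming it alone and has no value here. Between them the 34 genes had 79 such probe sets, and 25 genes had more than 1.

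RNA of mouse spleen, which the labels' protocols describe as splenocytes, was measured on 28 one-colour arrays of 45101 probe sets. The diet was a control diet or one enriched in abscisic acid (ABA), a hormone of plants, and part of the mice received lipopolysaccharide (LPS), the outer-membrane component of Gram-negative bacteria. Sample titles give 2 experiment codes, and the experiment with wild-type mice alone held, per diet, 4 arrays of LPS-treated and 2 of untreated mice. The other, called the 2-genotype experiment below, held 2 arrays for each combination of diet, challenge and genotype, 16 in all. Every mouse carried floxed Pparg (PPAR g flfl). Wild-type here means PPAR g flfl; MMTV-Cre-, and null means PPAR g flfl; MMTV-Cre+, in which Cre is driven by the MMTV promoter, so that deletion is limited to cells in which that promoter is active. The labels call the null mice spleen-specific in one place and epithelial and immune cell-specific in another. Age, sex, LPS dose and the time after LPS are not given in the sources used here.

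Cells make cholesterol from acetyl-CoA through mevalonate, squalene and lanosterol, and fatty acids through malonyl-CoA. When membrane sterol is low, SCAP escorts the transcription factor SREBP2 (gene Srebf2) out of the endoplasmic reticulum, and the INSIG proteins hold the pair back when sterol is plentiful, so the sterol genes often move together. SREBP1 (gene Srebf1) acts mainly on fatty acid synthesis, elongation and desaturation. Macrophages and lymphocytes are known to alter both branches when they are activated.

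The stretches of 250 bases just before the annotated start of 4 sterol genes are shown. These genes rose with LPS in the 2-genotype experiment when genotypes and diets were averaged, a comparison added after seeing the data. In neither genotype alone did all 4 pass the threshold used below. They come from RefSeq on GRCm38.p6, at chr13:119690101-119690350 on the plus strand for Hmgcs1, chr13:8885356-8885605 on the plus strand for Idi1, chr5:4104698-4104947 on the minus strand for Cyp51 and chr8:64733579-64733828 on the minus strand for Msmo1. Capitals mark CCAAT or its reverse complement ATTGG and, in Hmgcs1, a match to TCACNCCAC, the consensus of the sterol regulatory element.
Hmgcs1: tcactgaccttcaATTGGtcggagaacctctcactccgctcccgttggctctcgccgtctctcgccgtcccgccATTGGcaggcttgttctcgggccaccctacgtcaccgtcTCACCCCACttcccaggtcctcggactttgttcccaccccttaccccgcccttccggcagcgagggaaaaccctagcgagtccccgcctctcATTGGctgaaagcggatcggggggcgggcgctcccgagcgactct
Idi1: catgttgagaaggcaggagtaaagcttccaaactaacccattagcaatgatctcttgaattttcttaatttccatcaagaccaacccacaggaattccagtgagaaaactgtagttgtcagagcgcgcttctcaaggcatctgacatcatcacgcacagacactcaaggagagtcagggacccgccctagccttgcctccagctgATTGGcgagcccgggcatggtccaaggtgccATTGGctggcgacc
Cyp51: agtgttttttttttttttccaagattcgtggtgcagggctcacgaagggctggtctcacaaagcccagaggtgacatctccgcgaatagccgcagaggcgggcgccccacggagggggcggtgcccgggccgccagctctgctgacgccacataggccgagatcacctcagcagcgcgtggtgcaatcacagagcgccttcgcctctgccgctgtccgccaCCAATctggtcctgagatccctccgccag
Msmo1: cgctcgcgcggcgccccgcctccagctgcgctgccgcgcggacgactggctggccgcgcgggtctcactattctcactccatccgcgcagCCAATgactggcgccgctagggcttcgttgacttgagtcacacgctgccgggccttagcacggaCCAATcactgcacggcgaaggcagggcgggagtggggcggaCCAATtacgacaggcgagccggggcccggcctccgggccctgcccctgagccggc
Windows from 250 bases before to 50 after a start were in the RefSeq table for 28 of the 35 genes, as 37 windows, and motifs were searched on both strands. TCACNCCAC was found for 1 of these 28 genes, Hmgcs1, and for 1.44% of all 27025 genes in the table. CCAAT, the letters of the NF-Y box, was found for 23 of the 28 genes and for 41.1% of all genes. GGGCGG, the GC box of Sp1-type factors, was found for 23 of the 28 and for 38.2% of all genes, and it can overlap other GC-rich motifs. A match describes letters in a window and was not tested for binding.

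The values are deposited log2 expression values whose lowest value was 2.29 in the experiment with wild-type mice alone and 2.24 in the other, which points to separate normalisation, and levels are not set against each other across experiments or probe sets. Of all probe-set values, 59.6% and 53.2% lay within 0.5 log2 units of that lowest value, called close to it below. Acod1, a gene induced by LPS in macrophages, read 9.33 to 11.62 on the 16 LPS arrays and 2.29 to 2.92 on the 12 others. Pparg read 2.29 to 2.45 on the LPS arrays and, without LPS, up to 3.70 in wild-type and 3.31 in null mice. Where its probe set lies relative to the deleted part is not known, so Pparg checks no genotype label. Cpa1, of pancreatic acinar cells, read close to the lowest value on 24 arrays and up to 13.5 on the others, and Alb, of liver, close to it on all 28. The mean of the acinar list was 13.09 and 9.27 on replicate 2 of ABA and of the control diet in null mice without LPS. It was 8.98 on control-diet replicate 1 without LPS and 6.40 on control-diet LPS replicate 2 of the experiment with wild-type mice alone, and below 5 on all other arrays, so the LPS results averaged over diets and their difference between experiments are also given without these 4 arrays. Whether each replicate was a separate animal is not stated in the labels, and p-values reflect no more than the spread of these samples, which may be technical. Their small number limits the precision, and in such bulk samples fewer cells of a type and less RNA per cell cannot be told apart. Differences were tested with limma over all genes, with Benjamini-Hochberg adjustment at 0.05, and a ± after a difference is limma's standard error.

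With LPS, wild-type spleens had less Fads1, Stard4, Scd2 and Acss2 transcript and more Pmvk, Acaca, Msmo1 and Fasn. Of 33 members tested over the 20 wild-type arrays, diets averaged, 4 rose and 4 fell, against 18.9% of 12264 genes that rose and 16.1% that fell, so that 24.2% of members were called against 35% of genes. The median change of the members was 0.02 log2 units and that of all genes 0.00. The calls were not equally firm. Of 15 alternatives the call was lost in 9 each for Acaca and Fasn, 8 for Msmo1, 7 for Acss2 and 6 for Scd2. It was lost in 3 for Pmvk, 1 for Stard4 and 0 for Fads1. With quantile normalisation Pmvk, Acaca and Fasn were lost, while Hsd17b7 entered at 0.25 and Sc5d at 0.41. Fads1, the delta-5 desaturase that makes arachidonate and eicosapentaenoate, had the largest change of the members called, -2.94 ± 0.37 (limma adjusted p = 1.49e-05). The changes of Msmo1, Acaca and Fasn were 1.54, 0.91 and 1.22 in the 2-genotype experiment and 0.09, 0.06 and 0.34 in the other. The difference between experiments passed for the first pair, as given below, and not for Fasn (0.88, limma adjusted p = 0.406). Without 1 of 5 arrays the number of members called was 4 or 5: these were both ABA LPS arrays, both control-diet arrays without LPS and the first control-diet LPS array, each of wild-type mice of the 2-genotype experiment. Without the arrays of high acinar markers 6 members passed: Acss2, Fasn and Scd2 had limma adjusted p of 0.0784, 0.0718 and 0.0563, and Sc5d entered at 0.44.

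**Figure D1:**
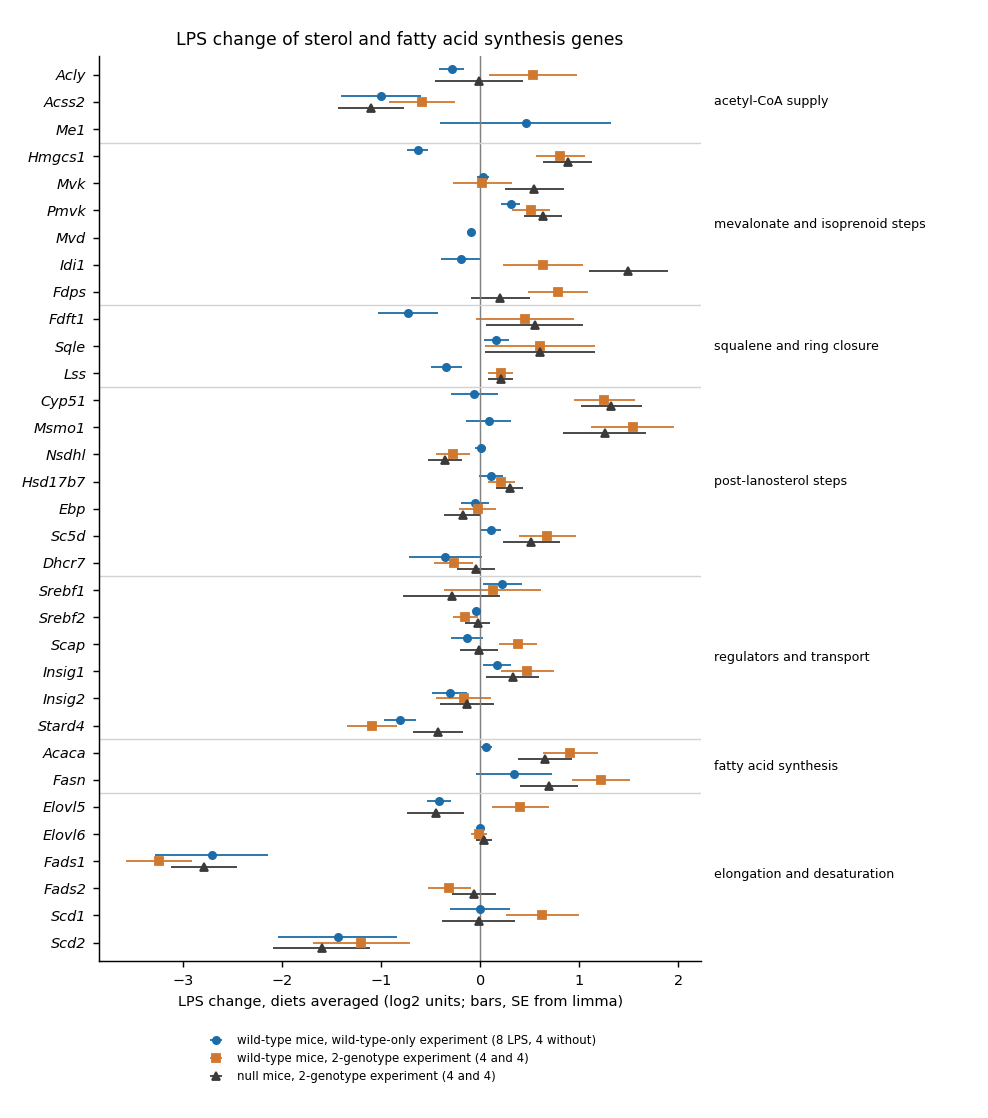
LPS change of each member in log2 units on the horizontal axis, diets averaged, with limma standard errors as bars, in wild-type mice of the wild-type-only experiment (circles), wild-type mice of the 2-genotype experiment (squares) and null mice (triangles). Fads1 lies furthest left at -2.71, -3.24 and -2.79, and Hmgcs1, Cyp51 and Msmo1 lie to the right of zero only in the 2-genotype experiment, apart from a change of 0.09 for Msmo1.

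Red cell precursors are made in the mouse spleen, and their genes moved with LPS on the same arrays. All 13 erythroid markers tested fell in wild-type mice, with a median of -3.65 log2 units. Their mean per array ran from 5.38 to 10.34 without LPS and from 4.39 to 6.42 with LPS in the experiment of wild-type mice alone. In wild-type mice of the 2-genotype experiment the ranges were 9.24 to 12.27 and 5.25 to 6.63. In null mice they were 6.95 to 12.09 and 6.79 to 9.87, and 0 of 13 markers passed with limma, 1 having an unadjusted p under 0.05. Of 15 cell cycle genes 12 fell in wild-type mice, with a median of -1.80. With the erythroid mean of each array as a covariate, 2 members passed in wild-type mice, Fads1 at -1.22 (limma adjusted p = 0.0389) and Insig2 at -0.84 (limma adjusted p = 0.0179). With the cell cycle mean 4 passed, which were Fads1, Stard4, Pmvk and Insig2. Markers of white cells were counted as well, beside 18.9% of all genes that rose and 16.1% that fell. In wild-type mice 5 of 10 macrophage markers fell and 1 rose (median -0.998). Of B cell markers 4 of 9 fell (median -0.78), and of T cell markers 4 of 8 (median -0.67). Of 8 neutrophil markers 1 rose and 1 fell (median 0.08), a smaller share than the 35% of all genes called. The neutrophil mean went from 8.59 to 7.47 with LPS in the experiment of wild-type mice alone. In wild-type mice of the other it went from 7.37 to 8.58. The macrophage mean ran from 9.01 to 9.75 without LPS and 7.02 to 8.09 with it in the experiment of wild-type mice alone, from 10.67 to 12.06 and 8.92 to 10.35 in wild-type mice of the other, and from 11.07 to 12.13 and 9.23 to 9.79 in null mice. The part of these white cells in the members' changes was not tested. The erythroid and cell cycle means themselves fell with LPS, so what each member owes to LPS and what it shares with these cells cannot be told apart by such a fit.

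The first enzymes of the module supply acetyl-CoA and NADPH, and 1 of the 3 tested, Acss2, fell. Acss2 makes acetyl-CoA from acetate. Its values in the wild-type-only experiment were 8.36, 8.17, 9.22 and 8.19 without LPS, and with LPS 8.36, 7.38, 6.72 and 6.65 on the control diet and 8.03, 8.39, 7.55 and 6.79 on ABA. In wild-type mice of the 2-genotype experiment the values were 4.62, 6.18, 6.00 and 5.60 without LPS and 5.07, 4.93, 5.43 and 4.62 with it. The groups overlapped in both experiments. The change was -0.82 ± 0.28 (limma adjusted p = 0.0312), and it missed the threshold without any 1 of 5 arrays, with adjusted p up to 0.082 (the wild-type-only arrays of both control-diet replicates and ABA replicate 1 without LPS, and in the 2-genotype experiment ABA LPS replicate 2 and control-diet replicate 2 without LPS). Null mice read 6.27, 5.83, 5.29 and 5.62 without LPS and 4.74, 4.65, 4.27 and 4.95 with it, with no overlap and a change of -1.10 ± 0.33 (limma adjusted p = 0.0673). Acly, ATP citrate lyase, ran from 11.47 to 12.08 in the experiment with wild-type mice alone and from 9.55 to 11.45 in the other, with an LPS change of 0.06 ± 0.18 (limma adjusted p = 0.82) in wild-type mice. Me1, malic enzyme, read 2.97 to 4.01 on 11 of the 12 wild-type-only arrays and was near the lowest value on 15 of the 16 others, and its 2 high arrays are described with the adipocyte genes below.

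Among the mevalonate steps Hmgcs1 changed with LPS in opposite directions in the 2 experiments. Hmgcs1, HMG-CoA synthase, makes the substrate of the rate-limiting reductase. Its values in the wild-type-only experiment were 10.77, 11.05, 10.97 and 11.07 without LPS, and with LPS 10.41, 10.11, 10.15 and 10.14 on the control diet and 10.20, 10.67, 10.66 and 10.37 on ABA. All 8 LPS arrays lay below all 4 others. Wild-type mice of the 2-genotype experiment had 7.99, 8.37, 8.63 and 9.05 without LPS and 9.01, 9.31, 9.53 and 9.41 with it, overlapping by 1 array. The change was -0.63 ± 0.11 in the first experiment (limma adjusted p = 0.00238) and 0.81 ± 0.25 in the second (limma adjusted p = 0.0512). The difference between these changes was 1.44 ± 0.18 (limma adjusted p = 0.000499), and it passed without each array in turn, at 1.33 to 1.54. Of its other probe sets, 3 gave 0.70 to 0.80 in these 2-genotype mice, but -0.46, -0.24 and 0.19 in the wild-type-only experiment, so the fall there was not shared by every probe set.

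Null mice read 9.11, 8.16, 8.90 and 8.40 for Hmgcs1 without LPS and 9.07, 9.30, 10.24 and 9.49 with it, a change of 0.88 ± 0.25 (limma adjusted p = 0.0565). Idi1, the isomerase that supplies dimethylallyl diphosphate, read 5.83, 5.59, 6.63 and 6.94 in null mice without LPS and 7.39, 7.50, 8.39 and 7.67 with it. These groups did not overlap, and Idi1 rose by 1.50 ± 0.40 (limma adjusted p = 0.0464), a call kept in 4 of 16 fits that left out 1 array. In wild-type mice of the same experiment Idi1 read 5.54, 7.03, 7.87 and 6.35 without LPS and 6.79, 7.45, 7.24 and 7.84 with it. Those groups overlapped, with a change of 0.63 ± 0.40 (limma adjusted p = 0.322). In the wild-type-only experiment the range was 10.04 to 10.58 without LPS and 9.82 to 10.84 with it, a change of -0.19 ± 0.20 (limma adjusted p = 0.528).

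Pmvk, phosphomevalonate kinase, was the member of this branch that rose in wild-type mice. It read 8.32, 8.23, 8.48 and 8.55 without LPS in the experiment with wild-type mice alone, and with LPS 8.68, 8.56, 8.78 and 8.67 on the control diet and 8.56, 8.47, 8.91 and 8.98 on ABA. In the 2-genotype experiment wild-type mice read 6.81, 7.02, 7.42 and 6.56 without LPS and 7.59, 7.67, 7.30 and 7.30 with it. The groups overlapped in each. The change was 0.40 ± 0.10 (limma adjusted p = 0.00744), positive in both experiments at 0.31 and 0.51, and it passed without each of the 20 arrays in turn. In null mice the 4 LPS values, 6.95 to 7.57, lay above the 4 others, 6.20 to 6.88, with a change of 0.64 ± 0.19 (limma adjusted p = 0.0654). Mvk, mevalonate kinase, and Mvd, mevalonate diphosphate decarboxylase, repeated 1 value within 0.01 on at least 50% of the arrays of either experiment, so they carry little information. Fdps, farnesyl diphosphate synthase, was listed at the lowest value on all 12 wild-type-only arrays and ran from 2.69 to 4.57 in the other experiment, where its wild-type change was 0.78 ± 0.30 (limma adjusted p = 0.105).

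None of the 3 enzymes from farnesyl diphosphate to lanosterol passed limma's threshold in wild-type mice, and 0 of them had an unadjusted p under 0.05. Fdft1, squalene synthase, changed by -0.73 in the experiment with wild-type mice alone and by 0.45 in wild-type mice of the other. Its second probe set gave -0.03 and -0.12 and did not share these opposite changes. Sqle, the squalene epoxidase, lay close to the lowest value on 10 arrays of the experiment with wild-type mice alone, and in the other its wild-type range was 4.16 to 6.58 without LPS and 5.98 to 6.56 with it. Lss, lanosterol synthase, had changes of -0.34 and 0.21 in the 2 experiments.

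Past lanosterol, Cyp51 and Msmo1 were higher with LPS in the 2-genotype experiment. Cyp51, the lanosterol 14-demethylase, read 5.01, 5.03, 6.07 and 5.50 in its wild-type mice without LPS and 6.39, 6.65, 6.87 and 6.72 with it. In null mice the values were 5.84, 4.91, 5.30 and 5.16 without LPS and 6.70, 6.44, 7.40 and 5.96 with it. No LPS array overlapped with the others in either genotype. Cyp51 rose by 1.25 ± 0.31 in the wild-type mice (limma adjusted p = 0.0212) and by 1.32 ± 0.31 in null mice (limma adjusted p = 0.0266). In the wild-type-only experiment it ran from 7.50 to 8.99 without LPS and from 7.93 to 8.92 with it, a change of -0.06 ± 0.24 (limma adjusted p = 0.89). Its second probe set gave 0.03, 0.79 and 1.29 in the 3 settings. The null call was lost without any 1 of 6 null arrays, all but replicate 1 of the control diet without LPS and replicate 2 of ABA with LPS, with adjusted p of 0.054 to 0.098.

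Msmo1, the C-4 methylsterol oxidase, read 4.76, 5.47, 4.53 and 5.58 in these wild-type mice without LPS and 6.28, 7.02, 6.53 and 6.66 with it. The groups did not overlap, and it rose by 1.54 ± 0.42 (limma adjusted p = 0.0313). In null mice 1 array without LPS read 6.33 and overlapped the LPS values of 5.66 to 6.69, and the change was 1.26 ± 0.42 (limma adjusted p = 0.0916). The wild-type-only arrays lay at 3.57 to 5.24 whatever the challenge, with a change of 0.09 ± 0.22. Over all 20 wild-type arrays Msmo1 passed at 0.71 ± 0.26 (limma adjusted p = 0.0412), and this held in 10 of 20 fits that left out 1 array.

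**Figure D2:**
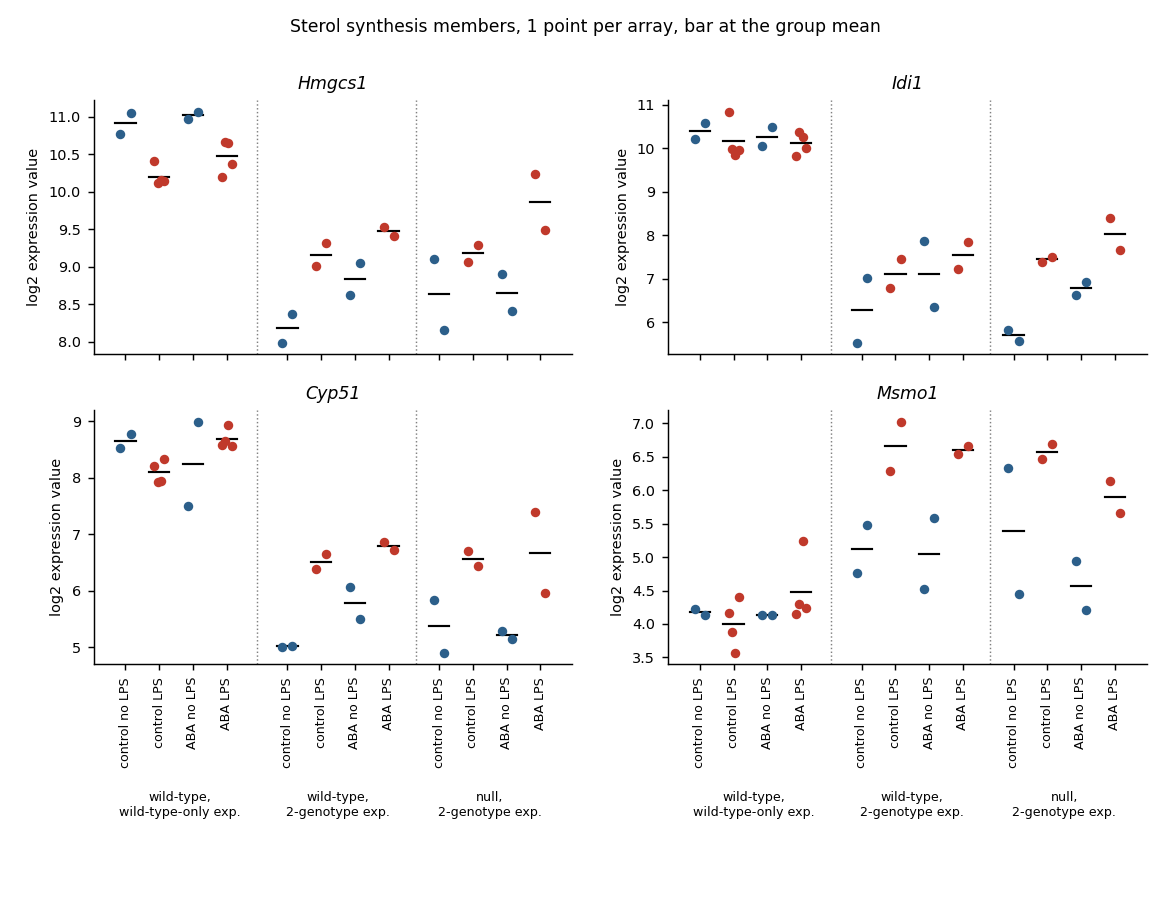
Log2 expression value on each array of Hmgcs1, Idi1, Cyp51 and Msmo1 by diet and LPS, with blue points for arrays without LPS, red points for LPS and a bar at the group mean. Hmgcs1 LPS arrays lie at 10.11 to 10.67 below the 10.77 to 11.07 of the others in the wild-type-only experiment, whereas in wild-type mice of the 2-genotype experiment Cyp51 lies at 6.39 to 6.87 with LPS and 5.01 to 6.07 without.

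The plot of these sterol genes by array shows the contrast between experiments that was tested directly with limma over the wild-type arrays. The LPS change was more positive in the 2-genotype experiment for 25 of 33 members. The members' median difference was 0.42, against 0.00 for all genes. Fdps, Fads2 and Elovl6 lay close to the lowest value on all 12 wild-type-only arrays and Sqle on 10. For them the difference therefore rests mostly on the 2-genotype experiment. Me1 and Mvd lay close to the lowest value on 15 and 16 arrays of the 2-genotype experiment. Mvk and Srebf2 repeated 1 value on 7 and 9 wild-type-only arrays and on 8 and 13 arrays of the other experiment. Srebf1, Scap, Sc5d and Nsdhl read only 2.67 to 3.95 on the wild-type-only arrays. Such members lie on both sides of the count of 25. The share of all genes with a more positive change is not given beside that count. Of the 33 members 4 passed, against 3.09% of all genes in that direction and 2.21% in the other. They were Hmgcs1 at 1.44, Cyp51 at 1.31 ± 0.32 (limma adjusted p = 0.0323), Msmo1 at 1.45 ± 0.39 (limma adjusted p = 0.0491) and Acaca at 0.85 ± 0.17 (limma adjusted p = 0.0128). The number called was 2 without any 1 of 8 arrays, among them 6 of the experiment with wild-type mice alone, and 7 or 8 without replicate 2 of the ABA or of the control diet without LPS in the 2-genotype experiment. Leaving out 1 array at a time kept Hmgcs1 and Acaca in 20 of 20 fits, Cyp51 in 10 and Msmo1 in 4. Of 13 other alternatives Hmgcs1 passed in all, Acaca was lost in 2, and Cyp51 and Msmo1 were lost in 8 each, among them the fit without the arrays of high acinar markers (limma adjusted p = 0.0825 and 0.142). Neutrophil markers differed between the experiments as well: their mean ran from 7.96 to 9.41 without LPS and 6.76 to 8.25 with it in the first, and from 6.92 to 7.83 and 8.15 to 9.19 in wild-type mice of the second. The difference passed for 5 of 8 of them, with a median of 2.54, and their part in the members' difference was not tested. What differed between the experiments is not given in the labels, and its part was not tested. Xist was high on all 12 wild-type-only arrays and mixed in the other experiment, the sexes being unlabelled. There its median was 2.24 without LPS in each genotype, and 7.21 with LPS in wild-type and 7.26 in null mice. With a term for high Xist 7 members passed for the difference between experiments. For LPS in wild-type mice that term left Msmo1 and Fasn short of the threshold (limma adjusted p = 0.0593 and 0.0639). It did so too for Pmvk on the control diet (limma adjusted p = 0.128) and Idi1 in null mice (limma adjusted p = 0.0776). The other calls of those comparisons were kept.

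Of the other post-lanosterol genes none passed with limma. Sc5d, the lathosterol desaturase, changed by 0.35 ± 0.13 in wild-type mice (limma adjusted p = 0.0505), and it read 3.03 to 3.62 on all wild-type-only arrays. Nsdhl, the sterol C-4 decarboxylase, changed by -0.12 ± 0.08, Hsd17b7, the 3-ketosterol reductase, by 0.15 ± 0.08, Ebp, the sterol isomerase, by -0.04 ± 0.11 and Dhcr7, which completes cholesterol, by -0.32 ± 0.21. Tm7sf2, a C-14 reductase, lay close to the lowest value on 27 of 28 arrays and was not tested.

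Among the regulators and transporters, Stard4 fell in wild-type mice while those that set SREBP activity did not pass. Stard4, a carrier that moves cholesterol between membranes and is itself an SREBP2 target, read 5.59, 5.75, 4.86 and 5.52 without LPS in the wild-type-only experiment. With LPS it read 4.21, 4.52, 4.22 and 4.26 on the control diet and 4.83, 5.44, 4.83 and 4.71 on ABA, so that the control-diet arrays lay below every array without LPS and the ABA arrays overlapped with them. In the 2-genotype experiment wild-type mice read 6.93, 6.78, 7.59 and 6.61 without LPS and 6.05, 5.18, 6.14 and 6.18 with it, with no overlap. Stard4 fell by 0.93 ± 0.16 on the log2 scale (limma adjusted p = 0.000306), by 0.81 and 1.09 in the 2 experiments, and it passed in each of the 20 fits that left out 1 array. With the erythroid mean as a covariate the adjusted p was 0.0536. Null mice read 6.97, 7.09, 6.80 and 6.49 without LPS and 6.18, 6.15, 6.97 and 6.35 with it, a change of -0.43 ± 0.25 (limma adjusted p = 0.33). Its other probe sets gave changes of -0.35 to -0.86, where they lay above the lowest value.

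Srebf2 repeated 1 value on at least 50% of the arrays in each experiment, so its wild-type change of -0.09 ± 0.06 says little. Its second probe set, which never lay close to the lowest value, gave -0.19 in the wild-type-only experiment. In the other it gave 0.66 in wild-type and 0.14 in null mice, and these changes were not tested. Srebf1 lay between 2.83 and 3.95 in the experiment with wild-type mice alone, where it repeated 1 value on 10 arrays. In the other it lay between 6.64 and 9.06, and the wild-type changes were 0.22 and 0.13. Insig1, which retains the SREBP complex and is an SREBP target, changed by 0.30 ± 0.14 (limma adjusted p = 0.119). Insig2, its relative, changed by -0.25 ± 0.16 (limma adjusted p = 0.246), and Scap by 0.09 ± 0.15 (limma adjusted p = 0.692). In the 2-genotype experiment, genotypes and diets averaged, Hmgcs1, Cyp51 and Msmo1 rose with LPS while Stard4, a target of the same factor, fell, with values given below.

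Both enzymes that build palmitate rose in wild-type mice, Acaca and Fasn. Fasn, the fatty acid synthase, read 7.65, 8.43, 8.68 and 8.50 without LPS in the wild-type mice of the 2-genotype experiment and 9.20, 9.35, 10.27 and 9.30 with it. Its change there was 1.22 ± 0.30 (limma adjusted p = 0.0204) with no overlap, and null mice also showed none, at 8.31 to 8.67 without LPS and 8.71 to 9.67 with it (change 0.70 ± 0.30, limma adjusted p = 0.178). In the wild-type-only experiment it ran from 6.02 to 6.69 without LPS and from 5.97 to 8.20 with it, a change of 0.34 ± 0.38 (limma adjusted p = 0.551). Over both experiments the change was 0.72 ± 0.27 (limma adjusted p = 0.046), which passed in 5 of 20 fits that left out 1 array. Acaca, acetyl-CoA carboxylase, read 6.49, 6.66, 6.63 and 5.92 without LPS and 7.13, 6.93, 7.45 and 7.83 with it in the 2-genotype wild-type mice, with no overlap and a rise of 0.91 ± 0.27 (limma adjusted p = 0.0468). In the wild-type-only experiment it repeated the value 8.28 on most arrays, and its other probe set gave 0.82 there and lay close to the lowest value on all 16 arrays of the other. The difference of its LPS change between experiments therefore rests on 1 probe set, and with the mean of both probe sets it was 0.02. Over both experiments Acaca changed by 0.42 ± 0.15 (limma adjusted p = 0.0349), a call kept in 14 of 20 fits that left out 1 array and lost without any 1 of 6 of the 2-genotype arrays (both ABA LPS arrays, both control-diet arrays without LPS, control-diet LPS replicate 1 and ABA replicate 2 without LPS).

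Of the 6 elongases and desaturases 2 fell, and Fads1 did so in wild-type mice of each experiment and in null mice. It read 7.71, 6.29, 8.52 and 5.64 without LPS in the experiment with wild-type mice alone, and with LPS 5.69, 4.71, 4.30 and 4.35 on the control diet and 3.59, 3.08, 4.45 and 4.48 on ABA. In wild-type mice of the 2-genotype experiment the values were 8.14, 7.47, 7.75 and 6.64 without LPS and 4.46, 4.08, 4.64 and 3.86 with it. Only 1 LPS array of the wild-type-only experiment, at 5.69, overlapped with an array without LPS, at 5.64, and in the 2-genotype experiment none did. Null mice read 6.92, 7.71, 6.79 and 7.02 without LPS and 4.40, 3.82, 4.93 and 4.14 with it, again without overlap. The change was -2.71 ± 0.57 in the wild-type-only experiment (limma adjusted p = 0.00763). It was -3.24 ± 0.33 in wild-type mice of the other (limma adjusted p = 0.00024) and -2.79 ± 0.33 in null mice (limma adjusted p = 0.000828). Over the wild-type arrays the change stayed past the threshold in all 15 alternatives tried, at -3.24 to -1.22, and in all 20 fits that left out 1 array. The second Fads1 probe set lay close to the lowest value on 27 of 28 arrays, so the change rests on 1 probe set.

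Scd2, a stearoyl-CoA desaturase that makes oleate outside the liver, read 8.30, 7.62, 7.04 and 7.61 without LPS in the experiment with wild-type mice alone, and with LPS 7.84, 6.58, 6.58 and 5.30 on the control diet and 6.74, 4.01, 5.82 and 6.76 on ABA. The 2-genotype wild-type mice had 9.79, 9.88, 9.05 and 10.22 without LPS and 8.45, 8.13, 9.82 and 7.75 with it. In each experiment 1 LPS array overlapped with the arrays without LPS. The change was -1.34 ± 0.41 (limma adjusted p = 0.0194), -1.44 and -1.20 in the 2 experiments, where alone it did not pass. Null mice had no overlap, at 9.03 to 10.84 without LPS and 8.03 to 8.45 with it, and a change of -1.60 ± 0.49 (limma adjusted p = 0.0703). Scd1, the main desaturase of liver and fat, read 11.72 to 13.45 in the experiment with wild-type mice alone and 10.83 to 12.60 in the other, with a change of 0.27 ± 0.24 (limma adjusted p = 0.417) in wild-type mice. Elovl5, which lengthens polyunsaturated fatty acids, fell by 0.42 ± 0.12 in the wild-type-only experiment (limma adjusted p = 0.0297). In wild-type mice of the other it changed by 0.40 ± 0.29 (limma adjusted p = 0.382). Its second probe set, which never lay close to the lowest value, gave 0.05 and 0.09 in the same settings. The fall therefore rests on 1 probe set. Fads2, the delta-6 desaturase, and Elovl6, which lengthens palmitate, lay close to the lowest value on all 12 wild-type-only arrays. They changed by -0.31 and -0.02 in wild-type mice of the 2-genotype experiment and by -0.07 and 0.03 in null mice. Another Fads2 probe set, above that value on all wild-type-only arrays, changed by -0.74 there. In the other experiment it changed by -0.54 in wild-type and 0.08 in null mice. With the mean of all probe sets Fads2 passed in wild-type mice at -0.28 (limma adjusted p = 0.0051).

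**Figure D3:**
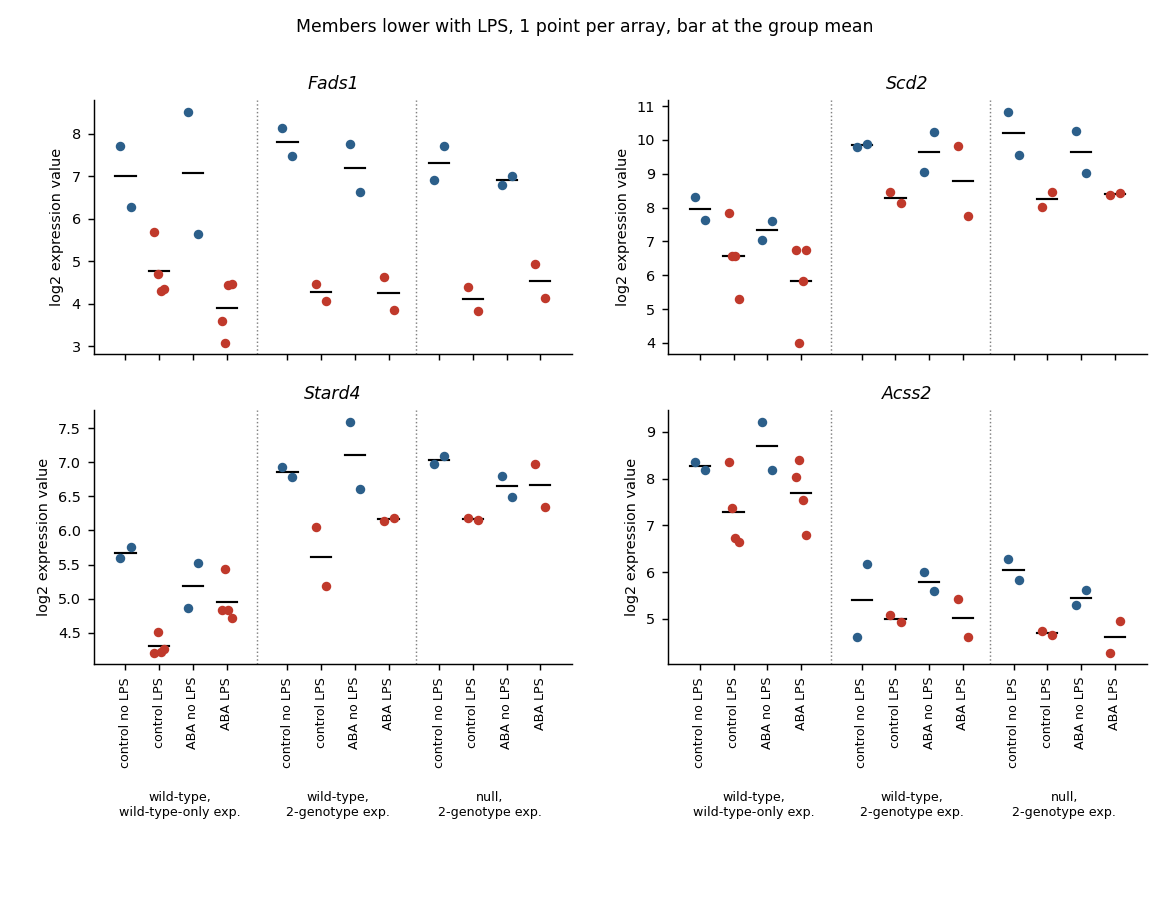
Log2 expression value on each array of Fads1, Scd2, Stard4 and Acss2 by diet and LPS, with blue points for arrays without LPS, red points for LPS and a bar at the group mean. Fads1 LPS arrays lie at 3.08 to 5.69, 3.86 to 4.64 and 3.82 to 4.93 in the 3 settings, and arrays without LPS at 5.64 to 8.52, 6.64 to 8.14 and 6.79 to 7.71.

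In null mice 2 of 31 members rose, Cyp51 and Idi1, and 1 fell, Fads1, against 4.9% and 4.5% of 11582 genes (9.39% in either direction). The median change was 0.03 for members and -0.05 for all genes. Of the 8 null arrays, leaving out either control-diet array without LPS gave 5 or 6 members called, and leaving out any other but replicate 2 of ABA with LPS gave 1, Fads1. Both untreated arrays with high acinar markers, against a list mean of 3.14 to 3.46 on the null LPS arrays, are among these 8. Without both of them 2 members passed, Fads1 at -2.53 (limma adjusted p = 0.0117) and Scd2 at -2.23 (limma adjusted p = 0.042), while Idi1 and Cyp51 had changes of 1.51 and 1.05 (limma adjusted p = 0.119 and 0.107). Over null mice 5 of 10 macrophage markers fell and 2 of 8 neutrophil markers rose. The LPS change was not detectably different between the genotypes: limma called 0 members for that difference and 0.0345% of all genes (0.0259% more positive in null mice), and 0 members had an unadjusted p under 0.05, against 4.55% of genes. The smallest unadjusted p-values among them were 0.0638 for Elovl5 at -0.85, 0.0938 for Stard4 at 0.66 and 0.16 for Idi1 at 0.86, each with limma adjusted p = 0.938. For Fads1 the difference was 0.45 ± 0.47. Averaged over both genotypes and diets, a comparison that shares its arrays with the ones above, 7 of 31 members rose and 4 fell, against 14% and 14.1% of genes. Those that rose were Hmgcs1, Idi1, Pmvk, Cyp51, Msmo1, Acaca and Fasn, at 0.57 to 1.40, and those that fell were Fads1, Scd2, Acss2 and Stard4, at -3.01 to -0.76. Without both null arrays of high acinar markers 10 passed, Acss2 and Idi1 missing (limma adjusted p = 0.0606 and 0.0601) and Fdps entering at 0.69. The members' median was 0.25 and that of all genes -0.01. With the erythroid mean as a covariate 5 passed, which were Pmvk, Fdps, Acaca, Fads1 and Scd2, and Hmgcs1 then changed by 0.17 (limma adjusted p = 0.486).

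Counted by overlap alone, 0 of 31 members lay higher on every LPS array of the wild-type-only experiment, against 11.2% of genes, and 1, Hmgcs1, lay lower, against 7.09%. In wild-type mice of the 2-genotype experiment 4 lay higher, against 10.9%, and 2 lower, against 9.16%. In null mice 4 lay higher, Pmvk, Idi1, Cyp51 and Fasn, against 7.49%, and 3 lower, Acss2, Fads1 and Scd2, against 8.04%. The limma tests within each experiment gave 1 risen and 4 fallen members of 31 in the wild-type-only experiment (16.2% and 13% of genes, 29.2% in all) and 4 risen and 2 fallen in the wild-type mice of the other (10.7% and 7.24%, 18% in all).

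Adipocyte markers varied between arrays, and Me1, Fasn and Scd1 are genes that adipocytes express strongly. Adipoq, which encodes the adipocyte hormone adiponectin, lay close to the lowest value on 19 of 28 arrays. It read 7.61 on the first ABA LPS array of wild-type mice in the 2-genotype experiment, where Me1 read 6.83, Fasn 10.27 and Scd1 12.60, each the highest of its group of 8 wild-type arrays. On the first control-diet LPS array of the wild-type-only experiment Adipoq read 5.78 and Me1 7.88. On the first control-diet LPS array of null mice Adipoq read 8.39, yet Me1 read 2.32. The mean of the adipocyte list in the 2-genotype experiment ran from 3.57 to 4.14 without LPS and 3.73 to 4.73 with it in wild-type mice, and from 3.51 to 3.59 and 3.64 to 4.81 in null mice. Of 6 adipocyte genes tested 1 rose in wild-type mice, where 18.9% of all genes rose. Cidec, Lep, Adig and Ucp1 lay close to the lowest value on all 28 arrays. With the adipocyte mean as a covariate the wild-type change of Fasn was 0.60 (limma adjusted p = 0.0815) and that of Fads1 was -3.14 (limma adjusted p = 3.42e-06).

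**Figure D4:**
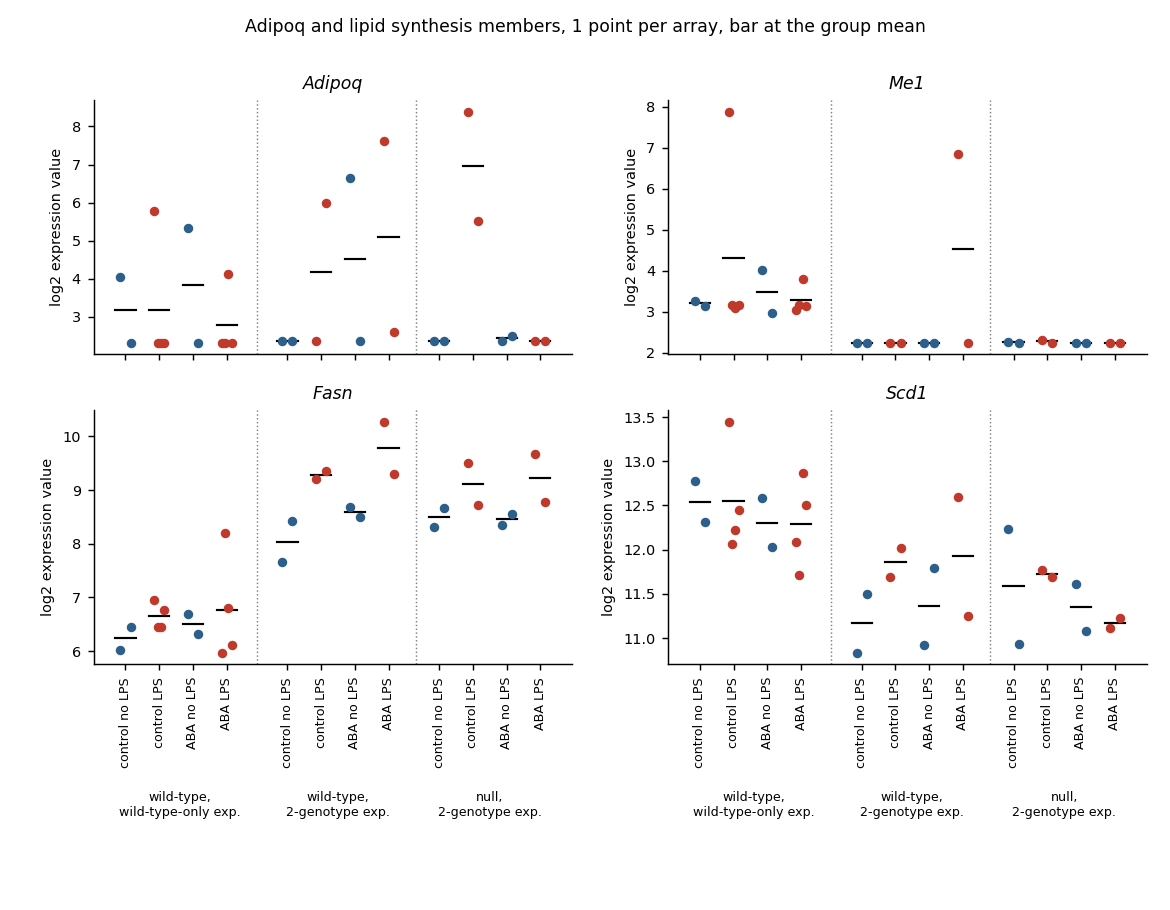
Log2 expression value on each array of Adipoq, Me1, Fasn and Scd1 by diet and LPS, with blue points for arrays without LPS, red points for LPS and a bar at the group mean. Single arrays carry the high Adipoq values, at up to 8.39, and Me1 stands out on 2 of them, at 7.88 and 6.83.

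No member passed limma's threshold for diet or genotype. On the control diet alone 1 member rose with LPS in wild-type mice, Pmvk at 0.51 (limma adjusted p = 0.0206), and 2 fell, Stard4 at -1.29 (limma adjusted p = 0.00062) and Fads1 at -2.78 (limma adjusted p = 0.0012), against 12.1% and 8.82% of genes. On the ABA diet 0 rose and 1 fell, Fads1 at -3.10 (limma adjusted p = 0.000579), against 10.4% and 7.58% (18% in either direction). With the erythroid mean as a covariate the control-diet changes were 0.58 for Pmvk (limma adjusted p = 0.0818), -1.23 for Stard4 (limma adjusted p = 0.0182) and -1.12 for Fads1 (limma adjusted p = 0.0942). On ABA Fads1 then changed by -1.31 (limma adjusted p = 0.0845), and by -1.85 with the cell cycle mean (limma adjusted p = 0.0569). The number called on ABA was 2 or 3 without replicate 2 of ABA LPS or either ABA array without LPS in the wild-type-only experiment, or without replicate 1 of ABA LPS in the other. The difference of the LPS change between diets was called by limma for 0 members and 0% of genes, and 3 members had an unadjusted p under 0.05, as did 4.51% of genes. Those were Stard4 at 0.73, Scap at 0.68 and Nsdhl at 0.34, each with limma adjusted p = 0.956.

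Among LPS-treated wild-type mice ABA against control diet gave 0 members by limma (0.0163% of genes), and 2 had an unadjusted p under 0.05, as did 5.56% of genes. Stard4 was the first of these, at 0.62 ± 0.20 (limma adjusted p = 0.804). Its 4 ABA LPS values in the wild-type-only experiment, from 4.71 to 5.44, all lay above the 4 control-diet LPS values, from 4.21 to 4.52. The 2 pairs of arrays in the 2-genotype experiment were ordered likewise, at 6.14 and 6.18 against 6.05 and 5.18. So were those of null mice, at 6.97 and 6.35 against 6.18 and 6.15. Stard4 was picked by its unadjusted p, and the share of all genes ordered likewise was not counted. These orders therefore add no test of diet to the one that Stard4 did not pass. Without LPS, ABA gave 0 members in wild-type mice (0.00815% of genes), with 1, Nsdhl at -0.34, at an unadjusted p under 0.05, as had 6.07% of genes. In null mice ABA gave 0 members with LPS (0% of genes) and 0 without (0.095%, of which 0.0604% rose), with 1 and 3 at an unadjusted p under 0.05, as had 8.27% and 7.17% of genes. The first was Scap at 1.01 (limma adjusted p = 0.289) and the others Fdps at -1.0, Elovl5 at -0.92 and Mvk at 0.94 (limma adjusted p = 0.667 to 0.696). Null against wild-type mice gave 0 members without LPS and 0 with LPS by limma (0.00863% of genes each), and 0 had an unadjusted p under 0.05 in either, against 1.87% and 4.61% of genes.

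**Figure D5:**
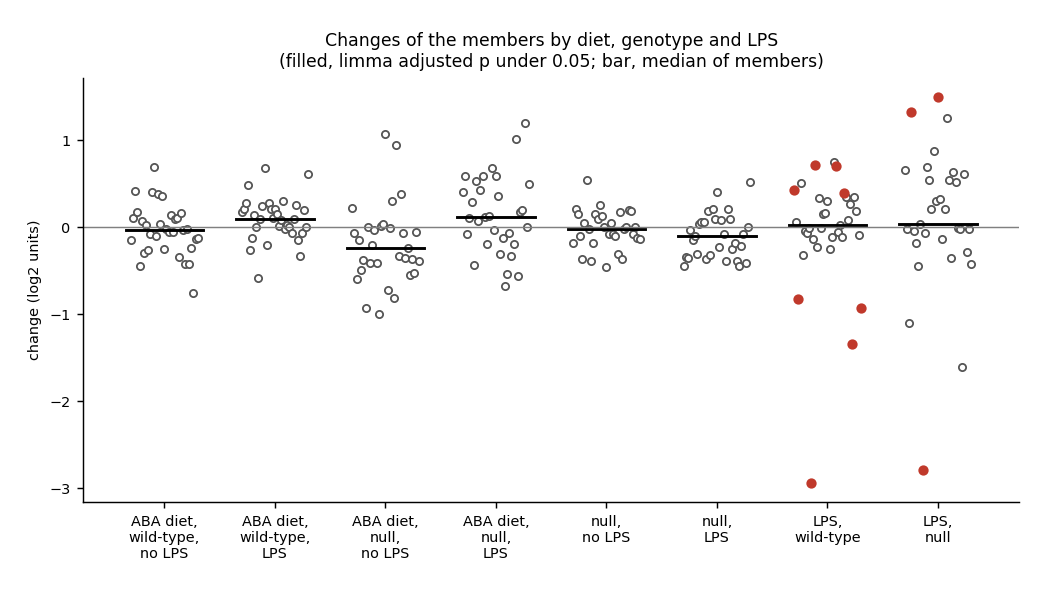
Change of each member in log2 units for 4 diet, 2 genotype and 2 LPS comparisons, with filled points for members past a limma adjusted p of 0.05 and a bar at the median of the members. Filled points appear in the LPS columns alone, 8 in wild-type and 3 in null mice.

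Genes around the module were taken from 4 further lists. Of 14 other sterol genes tested in wild-type mice 3 rose and 2 fell with LPS, with a median of 0.03, where 18.9% of all genes rose and 16.1% fell. Hsd17b12, a 3-ketoacyl reductase of elongation that also acts on steroids, rose by 1.23 and Npc2, a lysosomal cholesterol carrier, by 0.54 (limma adjusted p = 1.49e-05 and 0.0013), while Lbr, which shares the C-14 reductase step with Tm7sf2, changed by -1.06 and Acat1, the mitochondrial thiolase, by -0.72. Of 24 other fatty acid synthesis genes 3 rose and 5 fell. Acsl5, an acyl-CoA synthetase, rose by 0.82 and Pgd, an NADPH source, by 0.90, whereas Idh1, another NADPH source, changed by -1.58 and Hsd17b4, of peroxisomal oxidation, by -1.16, each past limma's threshold.

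Of 19 genes of oxysterols, LXR and efflux 3 rose and 7 fell, with a median of -0.16, where 18.9% of all genes rose and 16.1% fell. Ch25h, which makes 25-hydroxycholesterol, an oxysterol that holds back SREBP2, rose by 1.01 (limma adjusted p = 0.00124). Ch25h ran only from 2.72 to 5.06 over all arrays. It repeated the value 2.94 on all 4 wild-type-only arrays without LPS, so the size of its rise is uncertain. Cyp7b1, which breaks that oxysterol down, rose by 1.70 (limma adjusted p = 3.02e-07). Rxra, the partner of LXR, and Mylip, an LXR target that degrades the LDL receptor, changed by -0.80 and -0.90. Of 21 fatty acid oxidation genes 1 rose, Pdk4, at 3.16, and 5 fell, among them Acaa2 at -1.35 and Hadh at -1.21. The share called among these 21 lay below the 35% of all genes called in either direction.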

How the data were processed

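Biotin-labelled RNA of 28 spleen samples was hybridised to 1-colour arrays. The deposited values are log2 expression values, a scale read from their range, and GCRMA and limma are named in the submitters' processing notes without versions or roles. Genes were assigned from GEO's platform annotation (34945 with 1 gene, 932 with several, 9224 with none), and control probe sets were left out. Genes entered a test when above the 40th percentile of the array on at least the number of arrays in the smallest condition.

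Fits used limma 3.58.1 (lmFit, eBayes) in R 4.3.3. Wild-type comparisons took 20 arrays with an experiment term (12264 genes, 15 residual degrees of freedom), and null comparisons the 16 arrays of the 2-genotype experiment (11582 genes, 8 residual degrees of freedom). The fits were tested on simulated data, in which mean estimates lay close to the changes put in while many changes were missed in null mice. The 2-genotype average and the difference between experiments were added after seeing the data.

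Members and lists were chosen with earlier results of these data known. All members may be named, with array values for those called or with the largest LPS changes, and from the 4 metabolic lists up to 2 genes rising and 2 falling by adjusted p. Alternatives were quantile normalisation, median centring, other filters, the mean of all probe sets, array weights, trended and robust variances, experiments alone, a replicate block, a term for Xist, marker means as covariates leaving out each array and, added after seeing the data, leaving out 4 arrays with an acinar list mean above 5. Figures used matplotlib 3.10.9.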

Additional observations from a re-analysis of the deposited data

Results flagged for a closer look

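Some values stood far from the other arrays of their group of 4, the gap to the nearest taking up more of the group's range than Dixon's critical value. Among 32 combinations of a member and a group with a range over 0.5 log2 units, 6 did so. That limit on the range favours groups with 1 far value, so the rate expected by chance is not known. On the first control-diet LPS array of the wild-type-only experiment Me1 read 7.88, with the others at 3.08 to 3.16, and Idi1 read 10.84, with the others at 9.83 to 9.99. On the third ABA LPS array of that experiment Me1 read 3.81 (others 3.03 to 3.16), Sqle 3.07 (others 2.51) and Msmo1 5.24 (others 4.14 to 4.30). On the second, Stard4 read 5.44, with the others at 4.71 to 4.83.

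The LPS change of 4 members differed between the 2 experiments in wild-type mice by limma's test of that difference, at 1.44 for Hmgcs1, 1.31 for Cyp51, 1.45 for Msmo1 and 0.85 for Acaca. Leaving out 1 array at a time kept the call in 10 of 20 fits for Cyp51 and in 4 for Msmo1, and with the mean of both probe sets Acaca differed by 0.02.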

How the results depend on the processing

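Of the changes of members called in the 14 comparisons none reversed under the alternatives run, which was not assessed for members that were not called. The number of members called for LPS in wild-type mice was 8, and it was 4 with no filter and with the cell cycle mean, 5 with array weights, the adipocyte mean or the wild-type-only experiment alone, 2 with the erythroid mean, and 4 to 9 without 1 array. On the control diet it was 3, and 5 with the mean of all probe sets, 1 in the 2-genotype experiment alone and 2 to 4 without 1 array. On ABA it was 1, and 2 with the mean of all probe sets, quantile normalisation, the 60th percentile filter, the wild-type-only experiment alone or a term for high Xist, 0 with the erythroid or the cell cycle mean, and 1 to 3 without 1 array. In null mice it was 3, and 5 with quantile normalisation, median centring or the 60th percentile filter, 6 with the erythroid mean, 8 with the cell cycle mean, 1 with the adipocyte mean and 1 to 6 without 1 array. Over the 2-genotype experiment it was 11, and 5 with the erythroid mean, 2 with the adipocyte mean and 9 to 14 without 1 array. For the difference between experiments it was 4, and 2 with no filter, the mean of all probe sets, the erythroid or the adipocyte mean or without the arrays of high acinar markers (an alternative chosen after seeing the data), 7 with the Xist term and 2 to 8 without 1 array. The differences by genotype, for LPS and with or without it, and ABA in null mice without LPS gave 0, and 0 to 1 without 1 array: the 1 arose without ABA LPS replicate 2 of wild-type mice (genotype difference of LPS and genotype with LPS), control-diet replicate 2 without LPS of null mice (genotype without LPS) or either of those null replicates (ABA). Where an alternative tests fewer or more genes, arrays or probe sets, its construction moves the count, and for the others the cause was not tested.

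Replicate numbers were not taken to pair the samples. Deviations of same-numbered arrays from their group means correlated at -0.167 to 0.382 and -0.701 to 0.515 in the 2 experiments. Of the pairs, 4 of 14 and 20 of 56 were above 0.1. In groups of 2 arrays the deviations mirror each other, so each value counts for both numbers and a pairing cannot be settled from them. With the replicate number as a block 5 members passed for LPS in wild-type mice, 2 on ABA and 1 for the difference between experiments. Few arrays a group and values near the lowest limit what can be detected.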
